A study of Homo sapiens with 3 samples.

Results

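The comparison described here sets HCC1937 cells given dexamethasone together with retinoic acid against untreated HCC1937 cells. HCC1937, an established line from a human breast cancer, is classed as basal by the labels. One group received 200 nM dexamethasone, a synthetic glucocorticoid, and 1 µM retinoic acid for 16 h, and the other received neither. The medium of both was DMEM (glucose 3 mM, glutamine 0.5 mM), and both were read on the same slide of Illumina bead arrays. A further array, from cells given 200 nM dexamethasone alone for 16 h in that medium, lay on another slide and is given beside the values. Each group was 1 array, so no difference has a replicate check, no test was possible, and precision is limited by the number of arrays.

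Probes were taken into the comparison if they had 1 gene symbol in the platform annotation and a detection p-value under 0.01 on either array. The detection p-value ranks a probe among the negative control beads of that array. Of 47315 probes, 30109 had 1 symbol and 14198 of these qualified. They covered 10705 of 20043 genes, each read on its brightest probe. At the threshold, the 181 probes just inside had a detection p-value of 0.00909 and median intensities of 135.7 (untreated) and 186.8 (combination). The 219 probes just outside had 0.0104, with median intensities of 138.2 and 182.4.

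Glucocorticoids and retinoic acid both act through nuclear receptors, proteins that bind a small lipid-soluble hormone and then regulate genes from DNA. Dexamethasone binds the glucocorticoid receptor, which occupies a palindromic response element as a dimer. Retinoic acid binds retinoic acid receptors, which pair with retinoid X receptors on direct repeats of a half-site, and cells answer it by making the enzymes that destroy it. In epithelia, glucocorticoids are known for survival, ion transport and barrier programmes, and retinoids for differentiation and slower growth.

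Promoter sequences were searched because both receptors bind defined letters, and the windows below are shown because they hold a complete match beside a gene of this comparison. The windows were RefSeq's, in the GRCh38.p14 build, and reached from 250 bases before to 50 bases after an annotated start. Only the bases before the start are printed, in the direction of the gene, with the match in capitals. In CYP26A1, which encodes the enzyme that oxidises retinoic acid, the match was to the direct repeat with a spacer of 5 bases (DR5), read on the opposite strand, at positions -90 to -74 from the start. The printed stretch is chr10:93073643-93073892 on the plus strand. In CBLB, which encodes a ubiquitin ligase that restrains receptor signalling, the match was to the glucocorticoid response element at -51 to -37. Its stretch is chr3:105868382-105868631 on the minus strand.
CYP26A1: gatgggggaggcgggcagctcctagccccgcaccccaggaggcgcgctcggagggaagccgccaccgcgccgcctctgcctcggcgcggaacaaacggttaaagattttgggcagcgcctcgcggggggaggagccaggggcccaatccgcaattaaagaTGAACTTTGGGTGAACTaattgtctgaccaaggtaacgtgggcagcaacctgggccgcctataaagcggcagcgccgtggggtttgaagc
CBLB: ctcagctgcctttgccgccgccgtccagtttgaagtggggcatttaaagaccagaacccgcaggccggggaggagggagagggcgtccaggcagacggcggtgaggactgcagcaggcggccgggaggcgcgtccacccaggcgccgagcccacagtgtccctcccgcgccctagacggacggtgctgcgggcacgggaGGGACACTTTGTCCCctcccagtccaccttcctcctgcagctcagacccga
The lower genes also held 1 match of each kind. HROB, a factor of homologous recombination, had the DR5 letters at -164 to -148 in chr17:44141680-44141979, and MAP3K6, a MAP kinase kinase kinase, had the response element at -153 to -139 in chr1:27366912-27367211.
HROB: TGAACCAGTGCTGAACC
MAP3K6: GGCACAGGCTGTTCC
Complete matches were rare everywhere. DR5 was found in 31 of 35116 windows (0.0883%), which belonged to 29 of 27305 genes (0.106%), and in 1 of 508 higher genes with a window and 1 of 462 lower ones. The glucocorticoid element was found in 63 windows (0.179%) of 62 genes (0.227%), again in 1 higher and 1 lower gene. For each motif that was 0.197% of higher and 0.216% of lower genes, shares that rest on 1 gene each. In the 8685 measured genes with a window, the shares were 0.0921% for DR5 and 0.104% for the glucocorticoid element. The repeat with a spacer of 2 bases (DR2) was in 14 windows (0.0399%) of 14 genes and in no window of a higher or lower gene. The half-site AGAACA, on either strand, lay in 13.2% of higher genes, 10.8% of lower genes and 12.6% of all measured genes with a window, and in 17.5% of all genes with a window. AGGTCA lay in 15.6%, 13.9%, 13.4% and 16.5%. For both half-sites the share among higher genes was above that of measured genes with a window and below that of all genes with a window. No test was made of these shares. The half-sites can overlap complete matches.

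Of the 10705 genes, 625 were at least 2-fold higher on the combination array (5.84%) and 581 at least 2-fold lower (5.43%). Every list count for this comparison below is to be read beside these shares. The median log2 difference over all measured genes was -0.01, with an SD of 0.72. The largest differences were more often upward. At 4-fold there were 134 higher and 59 lower genes, at 8-fold 42 and 8, and at 16-fold 19 and 1. Among the 9420 genes detected on both arrays, 504 (5.35%) were higher and 525 (5.57%) lower. Of 668 genes detected only on the combination array, 121 were higher by the bound used, and of 617 detected only on the untreated array, 56 were lower.

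"At least" marks a gene undetected on 1 of the arrays, whose fold was set against the lowest detected value of that array. It is a limit only within this background correction and normalization. Over the alternatives in processing the smallest log2 differences were 4.34 in place of 6.60 for CYP26A1, 4.60 in place of 6.46 for DHRS3, 3.88 in place of 5.73 for EPAS1 and -1.83 in place of -3.43 for CLIC3. A gene detected on 1 array could differ in that array's direction only, so list counts are also given over the genes detected on both arrays where they differ much. Intensities below are unnormalized and still hold the background, so folds, which come from background-corrected and normalized values, do not equal their ratios. The bead standard error (SE) covers only the spread between beads of a probe. Unnormalized, the combination array was the brighter one, with a median ratio of 1.53 over genes detected on both arrays. Without normalization 556 of the 581 lower genes were still dimmer there. Other detected probes of called genes pointed the same way in 343 of 373 cases (92.0%), against 69.8% for 3110 other probes of genes not called, but only 175 of the 373 (46.9%) were past 2-fold themselves.

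**Figure D1:**
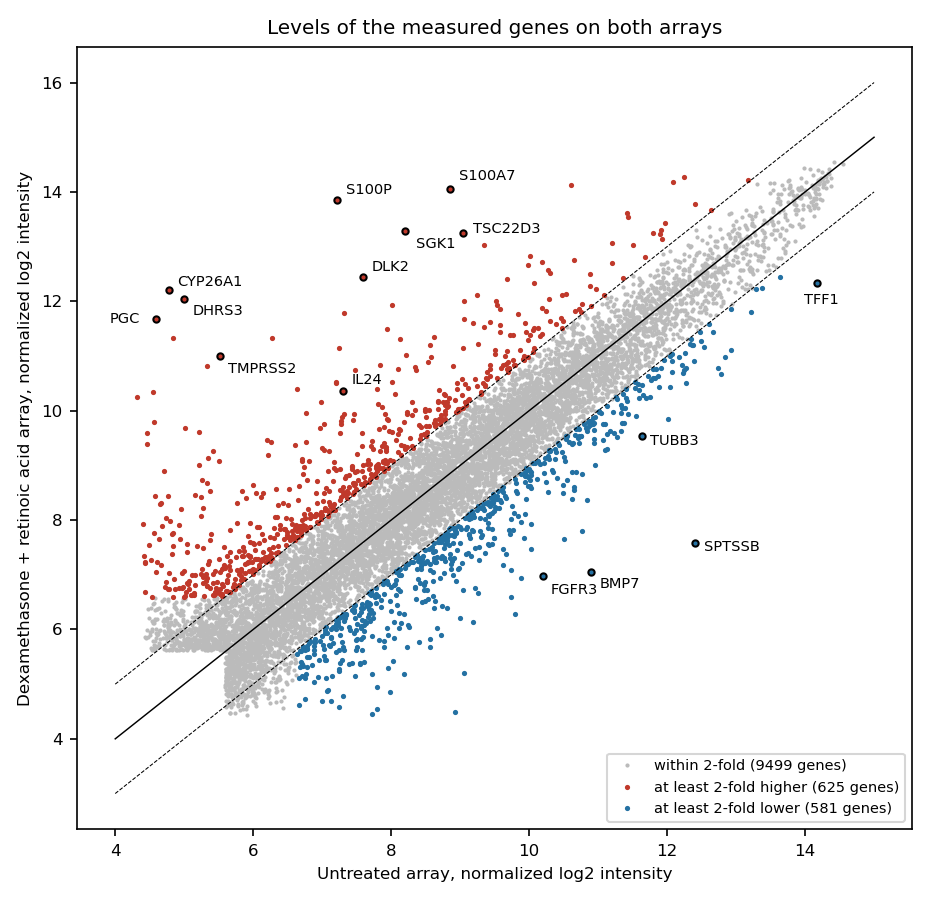
Normalized log2 intensity of each measured gene on the untreated array (horizontal) and on the dexamethasone + retinoic acid array (vertical), 1 point per gene. The solid line marks equality and the dashed lines 2-fold. Levels are drawn without the bound on undetected values that the colours use, so some points outside the dashed lines are grey. The 625 higher genes are red, the 581 lower ones blue, and the genes farthest above the line, such as S100P and CYP26A1, lie farther from it than any below.

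**Figure D2:**
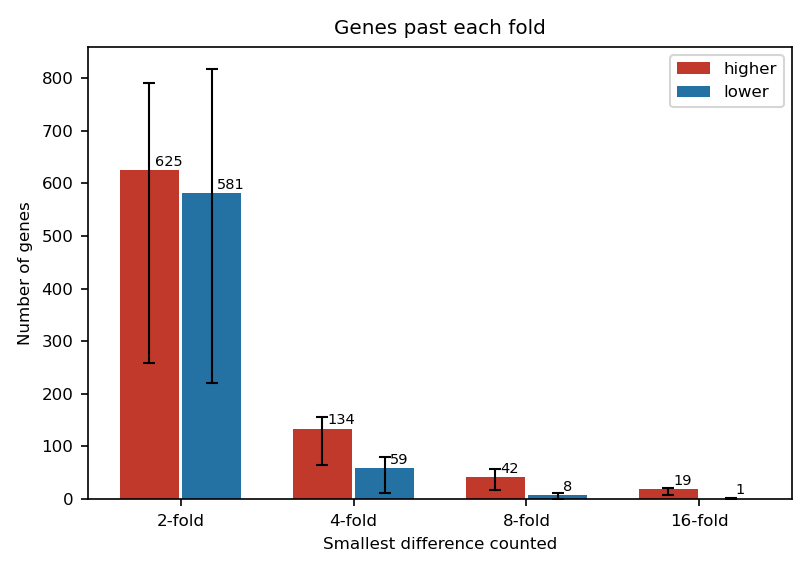
Number of genes at least 2-fold, 4-fold, 8-fold and 16-fold higher (red) or lower (blue) on the combination array. Bars are the values in the text, and thin lines span the lowest and highest count over 11 other ways of processing; they are not errors. The red bars are taller at each size, with 625 against 581 genes at 2-fold and 134 against 59 at 4-fold. At 2-fold the order turned under some of the other ways, such as 508 against 818 with scaling to the 75th percentile.

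Cell markers were checked first. Of 22 basal and myoepithelial markers with a probe, 14 were measured and 12 of these were detected on the untreated array, among them VIM, EGFR, LAMB3 and CDH3. The basal keratins KRT5 and KRT14 were undetected on both arrays of the pair. Of 31 luminal markers 28 were measured, all 28 on both arrays, including ESR1, GATA3 and TFF1. The identity of the line was not tested. KRT8, a keratin of simple epithelia, read 12138 on the untreated and 16704 on the combination array and differed by 0.12. Markers of other cell types were sparse: 2 of 15 fibroblast, 5 of 15 endothelial, 7 of 18 leukocyte, 3 of 9 adipocyte and 5 of 15 neural markers were measured. In bulk RNA, fewer cells of a type and less RNA per cell cannot be told apart.

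Genes that handle retinoids gave the second and the third largest higher differences. CYP26A1 read 126, 136 and 6159.6 on the untreated, dexamethasone and combination arrays, and the first 2 of these were not detected. It was at least 97.3-fold higher (log2 difference 6.60, bead SE 0.21), and its other detected probes differed by 2.62 and 4.34. DHRS3, a reductase that returns retinaldehyde to retinol, read 132, 159 and 5546, again detected only on the combination array, and was at least 87.8-fold higher. CYP26B1, a second oxidase of retinoic acid, was detected on all 3 arrays with 232, 488 and 2361, and was 9.62-fold higher. STRA6, the membrane receptor for retinol-binding protein, was at least 3.37-fold higher, and RDH16, a retinol dehydrogenase, at least 2.05-fold, but they passed 2-fold under only 8 and 6 of the 10 alternatives in processing that gave them a value. So 5 of 18 measured genes of retinoid uptake, storage and oxidation were higher and 0 lower, beside 5.84% and 5.43% of all measured genes. Of the 10 members detected on both arrays 1 was higher, and the median of 0.47 was -0.05 over them. The carriers CRABP2 and FABP5, which bring retinoic acid to different receptors, each differed by -0.69, and ALDH1A3, which makes retinoic acid, by 0.55, all within 2-fold.

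Among 18 measured targets of the retinoic acid receptors, 8 were higher and 2 lower (median 0.58). Of the 11 detected on both arrays, 4 were higher and 2 lower (median 0.34). Beside the genes above, ELF3, an epithelial transcription factor, read 482, 749 and 4299 on the untreated, dexamethasone and combination arrays and was 6.19-fold higher. NRIP1, a corepressor that nuclear receptors recruit, read 290.2, 329 and 2054 and was 5.7-fold higher. For both genes the first 2 arrays lay close together and the combination array stood apart. RET, a receptor tyrosine kinase, was 6.02-fold lower, and RARA, the retinoic acid receptor alpha itself, 2.31-fold lower. RARB was undetected on both arrays, as was RARG.

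Glucocorticoid receptor targets were higher in 15 of 21 measured cases and lower in 1, with a median of 1.59. With dexamethasone alone these counts were 13 and 1 of 21, beside 5.73% and 4.57% of the 10852 genes measured there; that comparison shares the untreated array. SGK1, a kinase that promotes sodium uptake, read 314, 13421 and 12358 on the 3 arrays and was 33.7-fold higher (log2 5.07, bead SE 0.08). Its values on both treated arrays were far above the untreated one. TSC22D3, which encodes the anti-inflammatory protein GILZ, read 478, 3680.3 and 12007 and was 18.5-fold higher, with other probes differing by 1.12 to 4.56. ALOX5AP, needed for leukotriene synthesis, read 116, 579 and 1835 and was at least 27-fold higher. In both genes the combination array was the brightest. KLF9, a zinc finger factor, was 15.2-fold higher, and FKBP5, a co-chaperone that dampens the receptor, 7.06-fold. The 1 lower member was RASD1, a small GTPase, at 3.78-fold, against a difference of 0.33 after dexamethasone. The receptor gene NR3C1 differed by -0.26.

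**Figure D3:**
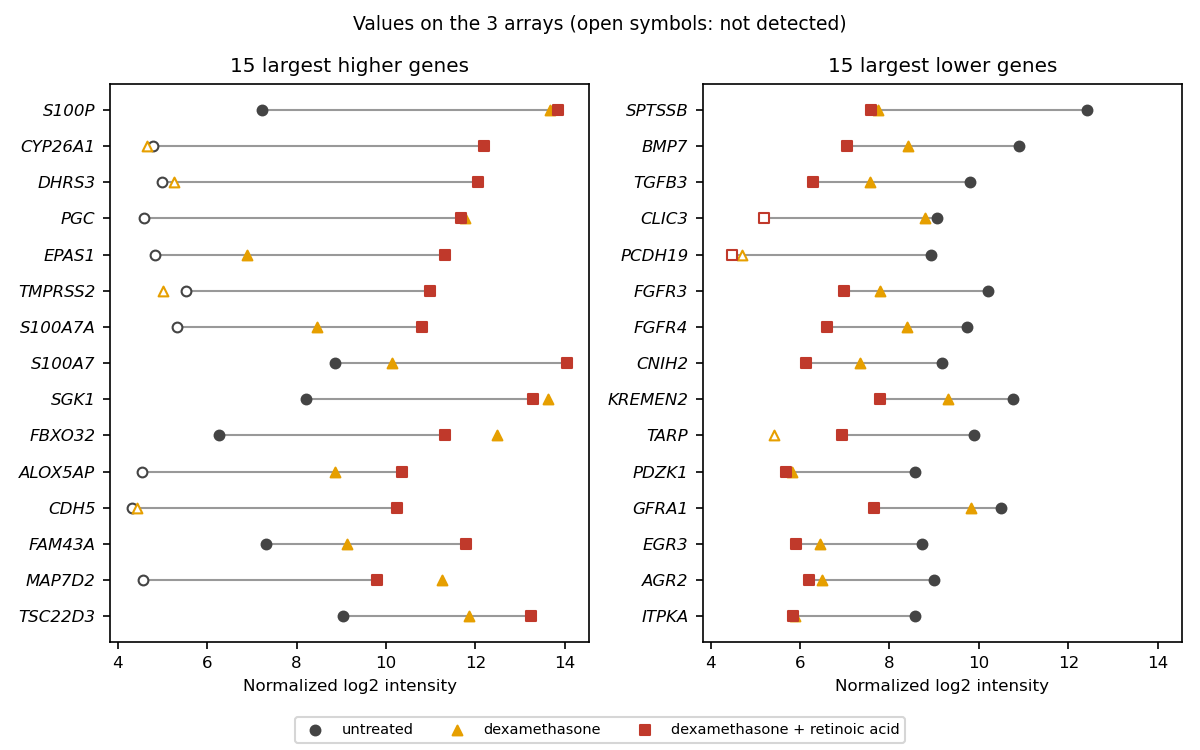
Normalized log2 intensity of the 15 largest higher (left) and 15 largest lower (right) genes on the untreated (circle), dexamethasone (triangle) and combination (square) arrays; open symbols are not detected. Genes with a detected probe in the other direction, such as DLK2, are left out. For CYP26A1, DHRS3, TMPRSS2 and CDH5 the dexamethasone value sits with the untreated one, and for S100P, PGC and SGK1 with the combination value.

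FOXO factors drive a catabolic programme that glucocorticoids are known to raise in muscle. Of 31 measured FOXO targets, atrophy ligases and arrestin-domain genes, 13 were higher and 2 lower. Their median was 0.31, and the shares over all measured genes were 5.84% and 5.43%. FBXO32, the ubiquitin ligase atrogin-1, read 166, 5754 and 3449 on the untreated, dexamethasone and combination arrays and was 33.2-fold higher. KLHL24, a substrate adaptor of ubiquitin ligases, was 7.82-fold higher, and the repressor BCL6 6.22-fold. CBLB, whose promoter is printed above, read 206, 439 and 936 and was 4.48-fold higher. The stress gene DDIT4, an inhibitor of mTOR signalling, was 4.29-fold higher. Of 8 measured Kruppel-like factors, 4 were higher and 0 lower (median 0.93): KLF9, KLF4 (4.81-fold), KLF5 (at least 3.74-fold) and KLF6 (2.99-fold).

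Most nuclear receptor genes were within 2-fold, as were most of all measured genes. Of 16 measured nuclear receptor genes, 1 was higher and 3 lower, beside 5.84% and 5.43% of all measured genes. Their median of 0.07 was -0.13 when arrays were scaled to their 75th percentile. NR5A2, which drives steroidogenic genes, was 2.71-fold higher. RARA, the oxysterol receptor NR1H3 (2.1-fold) and the estrogen receptor ESR1 (2.02-fold) were lower. ESR1 read 1028, 491 and 942 on the untreated, dexamethasone and combination arrays. NR5A2, NR1H3 and ESR1 passed 2-fold under 9, 8 and 8 of 11 alternatives. Among 15 coregulators, 3 were higher and 2 lower: NRIP1, NCOA4 (2.78-fold) and LCOR (2.23-fold) were higher, and the arginine methyltransferase CARM1 (3.38-fold) and TBL1X (2.02-fold) were lower. LCOR and TBL1X passed 2-fold under 9 and 8 of 11 alternatives.

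Genes known as androgen targets in prostate cells were higher in 8 of 15 measured cases and lower in 0. Their median was 1.11, and the shares over all measured genes were 5.84% and 5.43%. TMPRSS2, a membrane serine protease, read 145, 151 and 2801 on the untreated, dexamethasone and combination arrays. Detected only on the last, it was at least 42.3-fold higher. NDRG1, a stress-responsive gene, read 689.6, 5403 and 6999 and was 6.62-fold higher. RHOU, a small GTPase, was 5.59-fold higher and the elongation factor ELL2 3.18-fold.

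Of 27 measured estrogen targets, 1 was higher and 9 lower (median -0.51), beside 5.84% and 5.43% of all measured genes. PDZK1, a scaffold protein, read 375, 179 and 187 on the 3 arrays and was 7.41-fold lower. The chemokine CXCL12 was at least 5.04-fold lower and the matrix protein EFEMP1 4.12-fold. NRIP1 was the 1 higher member. Luminal markers, a list that shares members such as TFF1 with the estrogen targets, had 1 higher and 9 lower of 28 measured (median -0.69). Among the lower ones were the secreted disulfide isomerase AGR2 (6.97-fold), the trefoil peptide TFF1 (3.57-fold) and the survival factor BCL2 (3.95-fold). With dexamethasone alone, against the same untreated array, 2 luminal markers were higher and 9 lower of 28. For estrogen targets these counts were 1 and 8 of 27, beside 5.73% and 4.57% of all genes measured there. TFF1 read 17170.5, 6694 and 6718 on the untreated, dexamethasone and combination arrays, so it stayed bright on all. Of 14 basal and myoepithelial markers, 4 were higher and 2 lower (median -0.10). SNAI2, a repressor of epithelial genes, was 6.65-fold higher and KRT15 at least 5.57-fold, while the cadherin CDH3 was 3.33-fold lower. The basal and myoepithelial counts with dexamethasone alone were 8 higher and 0 lower of 16 measured there (median 0.92).

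Of 32 measured genes of the BMP and TGF-beta pathway 5 were higher and 2 lower (median 0.02), beside 5.84% and 5.43% of all measured genes. The 2 lower members had the second and the third largest lower differences of all genes. BMP7, a morphogen, read 1502, 457 and 295 on the untreated, dexamethasone and combination arrays and was 14.4-fold lower (log2 -3.85, bead SE 0.11). TGFB3 read 742, 311 and 222 and was 11.4-fold lower. In both genes the dexamethasone array lay between the others. Among the higher ones were GDF15, a stress cytokine that read 199, 197 and 969.8 and was 5.02-fold higher, and ID1, a target of BMP signalling (4.53-fold higher). The inhibitor SKIL was 2.99-fold higher and the signal transducer SMAD3 2.29-fold.

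Among 21 receptor tyrosine kinases, 1 was higher and 5 lower (median -0.45), beside 5.84% and 5.43% of all measured genes. FGFR3 and FGFR4, receptors for fibroblast growth factors, were 9.28-fold and 8.82-fold lower. FGFR3 read 968, 342 and 287 and FGFR4 715, 453 and 247 on the untreated, dexamethasone and combination arrays. The guidance receptor EPHA4 was 4.13-fold lower. The ligand gene ARTN and the receptor gene RET, each picked from its list, differed in opposite directions. With dexamethasone alone, against the same untreated array, they differed by -0.59 and -2.84. ARTN, the ligand artemin, read 161, 165 and 603 on the 3 arrays and was 5.13-fold higher. RET, which transduces its signal, read 539, 208 and 254 and was 6.02-fold lower, and GFRA1, a co-receptor of RET that binds the related ligand GDNF, read 1169.9, 1004 and 387 and was 7.24-fold lower. Of 17 ligand genes, 4 were higher and 1 lower, with PDGFC 2.7-fold higher, the ephrin EFNA1 2.53-fold higher and VEGFB 3.1-fold lower.

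In the Notch pathway membrane ligands activate receptors on neighbouring cells. Of its 26 measured genes 3 were higher and 5 lower, beside 5.84% and 5.43% of all measured genes. DLK2, a non-canonical ligand, read 242, 364 and 7109 on the untreated, dexamethasone and combination arrays and was 28.7-fold higher. Its other detected probes differed by -0.11 and 1.87, so the size depends on the probe. DLL1, a canonical ligand, was 9.18-fold higher and read 187, 384 and 1432. The receptor NOTCH1 was 2.65-fold lower and the regulators HES6 and NRARP 3.96-fold and 2.62-fold. In the Wnt pathway 2 of 24 were higher and 4 lower, beside the same shares of all measured genes. The transcription factor LEF1 was 4.66-fold higher and the feedback inhibitor AXIN2 2.06-fold, while the receptor FZD7 was 3.3-fold lower.

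The IL-20 family cytokines IL24 and IL20, which act on epithelial cells, were higher here and differed by -1.76 and -2.93 after dexamethasone alone, against the same untreated array. Of 5 measured members and receptors 2 were higher and 0 lower. IL24 read 219.6, 143 and 1853 on the untreated, dexamethasone and combination arrays, undetected on the second, and was 8.33-fold higher. IL20 read 420.4, 179.7 and 1759.8 and was 2.84-fold higher. For both the dexamethasone array was the lowest and the combination array the highest. Of 15 inflammatory cytokine and chemokine genes, 4 were higher and 2 lower (median 0.42), and of the 8 detected on both arrays 1 was higher and 1 lower (median 0.025), with CCL20 at least 7.28-fold and CXCL8 6.11-fold higher and CXCL16 3.56-fold lower. Of 26 interferon response genes, 3 were higher and 4 lower, beside 5.84% and 5.43% of all measured genes. PARP9, a partner of the ligase DTX3L, was 6.78-fold higher. ISG20, an exonuclease, was 3.32-fold lower and ISG15 2.71-fold lower.

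S100 genes encode small calcium-binding proteins, several of them released by stressed epithelia. Of 13 measured, 4 were higher and 2 lower, beside 5.84% and 5.43% of all measured genes. S100P read 213, 13880.2 and 16061 on the untreated, dexamethasone and combination arrays and was 99-fold higher. S100A7, psoriasin, read 436, 1203 and 17634, with the combination array far above the others, and was 36.7-fold higher. Its near copy S100A7A was at least 37.2-fold higher, and probes may not tell these sequences apart. S100A9 was 4.58-fold higher, whereas S100A4 and S100A14 were 3.1-fold and 2.67-fold lower. PGC, the digestive proenzyme pepsinogen C, read 118, 3451 and 4282 and was at least 67.7-fold higher. SERPINA3, a protease inhibitor, read 1243, 13539.5 and 18497 and was 11.5-fold higher. CALML5, a calmodulin-like protein of epidermis, was 13.7-fold higher. It was 1 of 2 higher among 11 measured epidermal differentiation genes, with 1 lower (median -0.31).

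Of 21 ion channel and pump genes of epithelia, 7 were higher and 1 lower (median 0.08), beside 5.84% and 5.43% of all measured genes. Of the 12 detected on both arrays, 2 were higher and 0 lower (median -0.19). The sodium channel subunits SCNN1A and SCNN1G were 6.98-fold and at least 7.21-fold higher. SCNN1A read 315, 699 and 2839 on the untreated, dexamethasone and combination arrays. The potassium channels KCNK12 and KCNMA1 were at least 16.3-fold and at least 11.7-fold higher, and the chloride channel protein CLIC3 was at least 10.8-fold lower. CLIC3 read 483, 559 and 168, undetected only with the combination. CDH5, the cadherin of endothelial junctions, read 97, 121 and 1707, detected only with the combination, and was at least 25.1-fold higher. The 4 other endothelial markers measured differed by -0.21 to 0.57. The protocadherin PCDH19 was at least 9.83-fold lower, and the tight junction genes CLDN1 and CGN were 5.64-fold and 2.89-fold higher. CLDN1 and CGN were the only 2 higher of 17 measured tight junction genes, with 0 lower (median -0.11).

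Of 25 fatty acid synthesis and desaturation genes, 7 were higher and 1 lower (median 0.20), beside 5.84% and 5.43% of all measured genes. ACSL1, which activates fatty acids, read 281, 2071 and 3812 on the untreated, dexamethasone and combination arrays and was 11.8-fold higher. The elongase ELOVL5 and the desaturase FADS1 were 5.8-fold and 4.57-fold higher, and the carboxylase ACACB at least 4.48-fold lower. Of 21 genes of fatty acid oxidation and lipid droplets 3 were higher and 1 lower (median 0.05). Of 28 sphingolipid genes 1 was higher and 2 lower (median 0.24), beside the same shares of all measured genes. Of 23 cholesterol synthesis genes, 0 were higher and 5 lower (median -0.46), led by the sterol reductase TM7SF2 (3.08-fold) and the decarboxylase MVD (2.78-fold). SPTSSB, a subunit of the first enzyme of sphingolipid synthesis, read 4302, 335 and 374 and was 28.4-fold lower, the only gene past 16-fold in that direction.

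Of 25 eicosanoid and annexin genes, 8 were higher and 1 lower, beside 5.84% and 5.43% of all measured genes. Of the 15 detected on both arrays, 5 were higher and 0 lower. Phospholipase PLA2G10 was at least 8.52-fold higher and the prostaglandin synthase PTGES 4.96-fold, and HPGD, which inactivates prostaglandins, was 2.62-fold higher as well. Of 15 steroid metabolism genes, 5 were higher and 0 lower. HSD11B2, which inactivates cortisol, read 157, 838 and 655 on the 3 arrays and was 6.27-fold higher. AKR1C2, AKR1C3 and AKR1C4 were 2.62-fold, 3.65-fold and 2.67-fold higher, but these sequences are closely alike and the signals may not belong to separate genes. The same holds for metallothioneins, of which MT1G was 6.16-fold higher and MT1F 4.35-fold lower.

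Cell division genes were lower or within 2-fold. In DNA replication and nucleotide synthesis 0 of 41 were higher and 11 lower (median -0.75). CDT1, which licenses origins, read 1756, 775 and 956 on the untreated, dexamethasone and combination arrays and was 3.56-fold lower. GINS2 and CDC45, parts of the replicative helicase, were 3.05-fold and 2.57-fold lower, with the dexamethasone array the lowest for each. With dexamethasone alone, against the same untreated array, the lower count was 22 of 41 and the higher 0, beside 4.57% and 5.73% of all genes measured there. Of 46 mitosis genes 0 were higher and 9 lower (median -0.49), including BIRC5 (2.93-fold). Of 24 homologous recombination genes 0 were higher and 4 lower (median -0.40), with RAD54L 2.59-fold lower and FANCG 2.75-fold. BRCA1 differed by -0.71. In the BCL2 family 3 of 21 were higher and 1 lower (median 0.08), beside 5.84% and 5.43% of all measured genes. The proapoptotic BMF was at least 17-fold higher, reading 133, 1742 and 1208. HRK and BIK were 3.14-fold and 2.17-fold higher, while the antiapoptotic BCL2 was lower. Within 2-fold, some other proapoptotic members were lower and some other antiapoptotic members higher.

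EPAS1, the hypoxia-inducible factor 2 alpha, read 128, 242 and 3441 on the untreated, dexamethasone and combination arrays and was at least 53.1-fold higher. It was not detected on the untreated array and dim on the dexamethasone one. Of 27 hypoxia response genes 8 were higher and 3 lower (median 0.37), with the lipid droplet gene HILPDA 4.65-fold higher and the prolyl hydroxylase subunit P4HA1 3.8-fold. PFKFB4, a regulator of glycolysis, was 3.42-fold lower. Of 33 genes of the unfolded protein response 0 were higher and 4 lower (median -0.27). Large housekeeping lists lay near 0: 1 of 49 respiratory chain genes was higher (median 0.02), and 1 of 64 ribosomal protein genes was lower, with a median of 0.02 that was -0.47 under scaling to the 75th percentile.

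**Figure D4:**
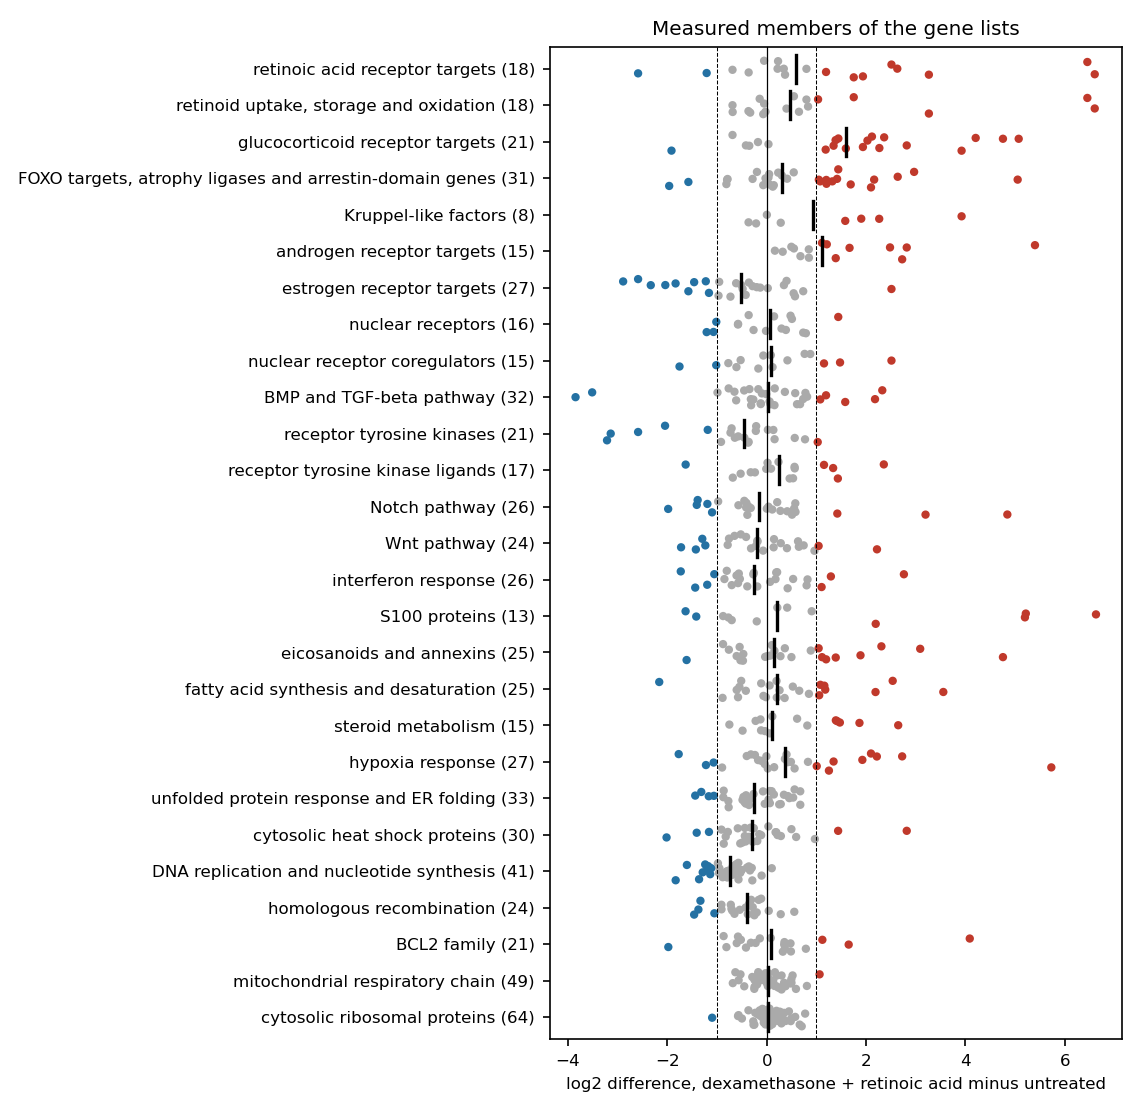
Log2 difference, combination minus untreated, of each measured member of 27 gene lists, with the number measured in brackets. Points are genes (red at least 2-fold higher, blue at least 2-fold lower) and black bars are list medians; dashed lines mark 2-fold. Glucocorticoid receptor targets have the rightmost median (1.59) and DNA replication genes the leftmost (-0.75).

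Outside these groups the naming rule gave FAM43A (22.1-fold higher) and the microtubule protein gene MAP7D2 (at least 18.5-fold higher), and among lower genes CNIH2, an auxiliary subunit of glutamate receptors (8.25-fold), KREMEN2, an inhibitor of Wnt receptors (7.84-fold), and ITPKA, an inositol trisphosphate kinase (6.65-fold). FAM43A read 220.5, 672 and 4631 on the untreated, dexamethasone and combination arrays. MAP7D2 read 117, 2479.8 and 1295 and was brightest on the dexamethasone array. KREMEN2 read 1371, 739 and 414, with the combination array the lowest. Over all 62 lists, which were chosen with earlier results known, 1190 genes were measured, 157 were higher and 116 lower, beside 5.84% and 5.43% of all measured genes.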

How the data were processed

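Total RNA of 3 HCC1937 samples was made into biotinylated cRNA and read on Illumina bead arrays, per the labels' protocols. Mean bead intensity was deposited with bead counts and a bead standard error in intensity units and was not normalized, per the file headers and the values. The deposited detection p-value compares a probe with negative controls, per the file headers. A second deposited table holds intensity values that ranked as the bead intensities did (Spearman correlation 1), with medians of 137.4, 137.5 and 137.5; the authors' software is not given in the sources used here. Detected probes numbered 16818 (untreated), 17091 (dexamethasone) and 16635 (combination), median intensities were 131.6, 149.3 and 159.0, and median bead counts 22, 21 and 22.

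In limma 3.58.1 (R 4.3.3), negative controls were inferred from detection p-values, normexp was applied with an offset of 16, and quantile normalization over the 3 arrays was followed by log2. Further steps used Python 3.11.15, numpy 2.4.6, pandas 2.3.3, scipy 1.17.1 and matplotlib 3.10.9. The platform annotation gave 8 probes several symbols and left 17198 unnamed; 30070 of 30117 gene identifiers matched RefSeq (GRCh38.p14). A gene was its brightest probe. An undetected side was raised to that array's lowest detected value, and the difference set to 0 where that turned its direction. The size rule was a log2 difference of at least 1, and 1200 of 1206 called genes exceeded 3 bead SE. No test was run.

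Members, lists (62 lists, 1945 genes, 130 without a named probe) and rules were chosen with earlier results of these data known. Named were the 15 largest genes each way with an official symbol and no opposite probe, up to 5 called members per list, genes chosen for the line, and genes whose probes lay furthest apart, some left out for length. Outside that rule, and chosen after their values were seen, were ABCG1, ALDH1A3, AXIN2, CRABP2, EME1, FABP5, HPGD, HROB, IRF1, LRRC59, MAP3K6, NRARP, RASD1, S100A14, SLC22A4, SLC22A5, SMAD3, XYLT2 and the endothelial markers at the ends of their range. Promoter matches were first sought in 1 window per gene; the step was widened to every window after the first result was seen. The procedure was tested on simulated arrays with known folds. A first pass criterion, that medians lie close to the simulated differences, failed for the largest decreases. After that was seen it was replaced by closeness of each gene to the difference expected once the offset is counted, which was met. The simulated noise was assumed, so that test says nothing of how many calls on the real arrays come from noise.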

Additional observations from a re-analysis of the deposited data

Results flagged for a closer look

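Probes without a gene symbol were left out of the comparison, and some differed as much as named ones. Of 4002 such probes detected on at least 1 of the 2 arrays, 131 were at least 2-fold higher on the combination array and 153 at least 2-fold lower, together 7.10%, against 11.1% of the named probes. The largest were ILMN_1764709 (20.9-fold higher, from 189.6 to 3202 in unnormalized intensity), ILMN_1735495 (20.3-fold higher), ILMN_3214893 (14.7-fold lower) and ILMN_3238283 (at least 11.5-fold lower). These 4 were chosen after their values were seen. No group held enough arrays to look for samples standing apart.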

How the results depend on the processing

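The counts of 625 higher and 581 lower genes were 272 and 241 without background correction and 259 and 221 with the deposited normalized values; both leave the background in the signal, which draws low values together. Scaling to the 75th percentile in place of quantile normalization gave 508 and 818, with 38.3% of calls higher in place of 51.8%, and the median over all genes was then -0.12 instead of -0.01. Over the other 8 alternatives the counts ran from 433 to 790 and from 409 to 701. At 4-fold, higher genes outnumbered lower ones under all 11 alternatives, by 65 to 11 with the deposited values and by 118 to 80 with the percentile scaling. Of 243 called genes followed, 158 stayed past 2-fold in the same direction under every alternative that gave a value, and 0 changed sign. The followed genes were the named ones, many picked for large differences, so these counts do not stand for all 1206 calls. Without background correction 513 genes were called in all, and 480 with the deposited values. Where the bound applied, a gene detected on 1 array could not change sign. Of the genes named in the text, STRA6, RDH16, NR5A2, NR1H3, ESR1, LCOR, TBL1X, SKIL, EPHA4, LAMB3, FZD7, KLF5, HRK, BIK, RAD54L, MVD, ACACB, COL1A1, GATA3, ABCG1, AXIN2, EME1, IRF1, LRRC59, MAP3K6, NRARP, RASD1, SLC22A4, SMAD3 and XYLT2 fell within 2-fold under at least 1. The medians of 29 of 62 lists kept their sign under all 11 alternatives and those of 33 changed sign or reached 0 under at least 1, such as ribosomal proteins (0.02, down to -0.47), nuclear receptors (0.07, down to -0.13) and mesenchymal genes (-0.14, up to 0.17); without the detection filter several medians equal 0.03, the difference between the floors of the 2 arrays. The medians of retinoic acid receptor targets and androgen targets ranged from 0.03 to 1.00 and from 0.50 to 1.30. No paired analysis was possible because each group holds 1 array, and for the same reason no replicate could be left out. Dim genes near the detection limit carry the least certain folds.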

Other observations

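Called genes were placed in the order of the GRCh38.p14 annotation, over 10696 measured genes. There were 15 runs of at least 3 adjacent measured genes called in the same direction, the longest of 4 genes. Higher runs included AKR1C2, AKR1C3 and AKR1C4 on chromosome 10, whose sequences are alike, and the carnitine transporter genes SLC22A4 and SLC22A5 with the interferon regulator IRF1 on chromosome 5. Lower runs included the lipid exporter ABCG1 with the trefoil genes TFF3 and TFF1 on chromosome 21, and COL1A1, XYLT2, EME1 and LRRC59 on chromosome 17. After a higher gene the next measured gene was higher in 12% of cases, beside 5.84% of all measured genes, and after a lower gene it was lower in 9.29%, beside 5.43%. No test was made of these shares.

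Probes of 1 gene sometimes differed widely. AKAP12, a scaffold protein, differed by 3.28 on its brightest probe and from 0.29 to 4.12 on the others, and CALD1, which binds actin and myosin, by 2.45 and from -0.16 to 1.39. In all, 24 called genes had a detected probe in the other direction.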
